A study of Sus scrofa with 14 samples.

Results

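The smooth muscle contractile and Z-disc genes ACTG2, CNN1, MYL9, PDLIM3, FHL1, DMPK and MCAM were described in pregnant uterus of pigs. These 7 genes were taken as all probe sets that carried 1 of their symbols alone in the platform annotation, which gave 9 probe sets of the 23999 tested, and 7 genes of the 6765 with a symbol of their own. They were selected on their levels in these same 14 arrays, where they were lower in high prolificacy, so their difference between the groups is a description with no test. The samples were uterus of 14 F2 sows from an Iberian x Meishan cross, which joins a European and a Chinese breed. The sows were slaughtered between days 30 and 32 of the fifth pregnancy. The labels class 5 sows as highly and 9 as lowly prolific, with 1 Affymetrix porcine array per sow and no treatment in either group. They do not give the layer of the uterine wall that was sampled. Levels are on the log2 scale of RMA, which summarises the probes of a set and makes arrays alike in their overall distribution, and differences are high minus low prolificacy. A difference of 1 stands for a 2-fold change.

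Smooth muscle contracts when calcium activates a kinase that phosphorylates the regulatory light chain of myosin, which then pulls on actin filaments anchored at dense bodies, the counterpart of the Z-discs of striated muscle. In the uterus these filaments fill the cells of the myometrium, the muscle coat outside the endometrium, and the walls of blood vessels hold smooth muscle as well. ACTG2 is the gamma actin of visceral smooth muscle, CNN1 is calponin, which binds actin and restrains the myosin ATPase, and MYL9 is the regulatory light chain itself. PDLIM3 binds alpha-actinin at the Z-disc, FHL1 is a LIM-domain protein of muscle, DMPK is the kinase whose gene is expanded in myotonic dystrophy, and MCAM is a cell adhesion molecule of smooth muscle, pericytes and endothelium.

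The arrays were alike in scale, with medians between 5.728 and 5.842, and the number of arrays limits the precision. Detection calls were not analysed here, and it is not known which dim levels exceed background. Of all probe sets, 1044 (4.35%) were called lower in high prolificacy by limma at an adjusted p under 0.05, and 841 (3.5%) were called higher. The label smooth muscle was checked with 7 other genes of this cell type (ACTA2, TAGLN, DES, SMTN, CALD1, MYLK and TPM2), which averaged between 8.46 and 13.40 in low prolificacy, above every array median. All 7 fell in high prolificacy (limma, median difference -2.81), and all of them belong to the pathway lists described below. The labels call each sample a biological replicate.

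The thin filament gene ACTG2 had levels of 11.98, 8.26, 5.92, 9.34 and 6.57 in high 1 to high 5. In the 9 low prolificacy arrays it lay between 12.85 and 13.79, with a median of 13.42. All high arrays thus lay under all low arrays, and they were spread over a far wider range. The means were 8.41 ± 2.41 (SD, n = 5) and 13.45 ± 0.27 (SD, n = 9), a difference of -5.03 ± 0.72 (SE), or 32.8-fold, and 60.8-fold without high 1. The low arrays stood close to the highest value of any probe set on any array, 14.07. The other ACTG2 probe set was dimmer and differed by -1.39 ± 0.30 (SE), from 8.17 ± 0.50 (SD, n = 9) to 6.78 ± 0.71 (SD, n = 5). It was the only probe set of the 9 whose groups overlapped, since high 1 at 7.85 lay above low 3 at 7.15 and low 9 at 7.73.

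Calponin, CNN1, had levels of 10.69 in high 1, 7.21 in high 2, 6.18 in high 3, 7.63 in high 4 and 7.60 in high 5. In low prolificacy it ran from 11.91 to 13.22 around a median of 12.47. The groups did not overlap, and the lowest low array exceeded high 1 by 1.22. The difference was -4.62 ± 0.53 (SE), which is 24.6-fold, or 40.2-fold without high 1.

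MYL9, the light chain that the contraction signal phosphorylates, stood at 10.62, 8.20, 7.76, 9.09 and 8.62 in high 1 to high 5. Its low prolificacy levels ran from 11.27 to 13.04 (median 12.33). This was the narrowest gap between the groups, 0.65 between high 1 and low 5. The difference of -3.33 ± 0.40 (SE), about 10-fold, was also the smallest among the 7 brightest probe sets.

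PDLIM3, at the Z-disc, had 9.04, 5.52, 3.36, 4.00 and 4.63 in the high arrays, against 10.61 to 12.31 (median 11.28) in the low arrays. The 4 arrays high 2 to high 5 lay under the median of their own array, and whether its signal there exceeds background is not known, so the fold is uncertain. The means of 5.31 ± 2.23 (SD, n = 5) and 11.29 ± 0.58 (SD, n = 9) differed by -5.98 ± 0.70 (SE). This was the largest difference of the 7, at 63.2-fold with high 1 and 121-fold without it.

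FHL1 and DMPK showed another layout. FHL1 was at 10.53 in high 1 and between 7.70 and 8.12 in high 2 to high 5. In low prolificacy its range was 11.75 to 13.02, with a median of 12.28. DMPK was at 8.40 in high 1 and between 6.29 and 6.67 in the other high arrays, against 9.52 to 11.79 (median 10.43) in low prolificacy. In both genes the 4 lower high arrays were thus tightly grouped, within 0.421 for FHL1 and 0.381 for DMPK. For the other genes they spanned from 1.34 (MYL9) to 3.43 (ACTG2). The DMPK levels there were not far above the array medians of 5.728 to 5.842, and whether they exceed background is not known. The differences were -3.82 ± 0.38 (SE), 14.1-fold, for FHL1 and -3.50 ± 0.39 (SE), 11.4-fold, for DMPK.

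MCAM, the adhesion molecule, had levels of 7.82, 4.68, 5.60, 6.97 and 6.21 in high 1 to high 5. Its low arrays ran from 8.80 to 10.47 (median 9.62), all above high 1. The other MCAM probe set gave 7.83, 4.85, 4.84, 6.81 and 6.23 in the high arrays and 9.04 to 10.43 in the low arrays. In both probe sets 2 of the 5 high arrays lay under the median of their own array, so the folds are uncertain. The 2 probe sets differed by -3.41 ± 0.43 (SE) and -3.61 ± 0.43 (SE), within 1 SE of each other.

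**Figure D1:**
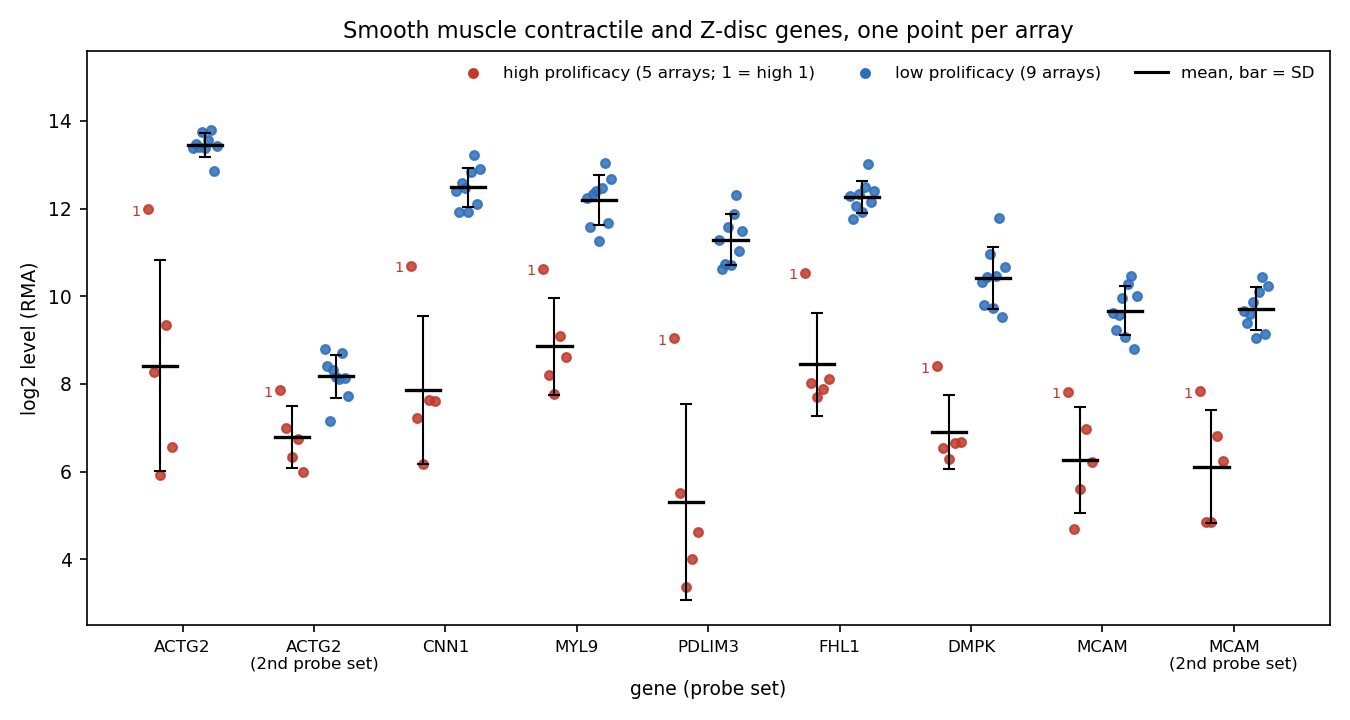
Log2 level (RMA) of each of the 9 probe sets in every array, red for the 5 high and blue for the 9 low prolificacy arrays, with the mean and SD of each group in black. High 1, marked 1, is the highest red point throughout, and the groups overlap only in the other ACTG2 probe set, between 7.15 and 7.85.

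All 9 probe sets were among the 4.35% called lower, and in 8 of them all 5 high arrays lay below all 9 low arrays, which held for 1.74% of all probe sets, while 0.904% had all high arrays above all low arrays. The choice of the genes fixes both counts. The median difference of the 7 genes was -3.82, beside 0.039 over all probe sets tested. In a bulk sample, fewer smooth muscle cells and less of these transcripts per cell cannot be told apart. Nor can the share of muscle coat taken with each sample, since the layer sampled is not given.

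The same array stood at the top of each group, and at the bottom of high prolificacy, for nearly every gene, but not at the bottom of low prolificacy. By the brightest probe set, high 1 was the highest high array for 7 of 7 genes and high 3 the lowest for 6 of 7. The exception was MCAM, lowest in high 2, while its other probe set had 4.85 in high 2 and 4.84 in high 3. The lowest levels of PDLIM3 and MCAM lay under the median of the array, so which array was lowest is uncertain for them. Among low arrays, low 7 was the highest for 7 of 7 genes, and the lowest was low 2 for 3 genes, low 8 for 3 and low 5 for 1. Set against the low prolificacy geometric mean, high 1 held 36.1% of ACTG2, 33.7% of MYL9, 30.0% of FHL1, 28.9% of CNN1, 27.9% of MCAM, 24.8% of DMPK and 21.0% of PDLIM3. High 3 held 0.541% of ACTG2, 0.409% of PDLIM3, 4.20% of FHL1 and 5.74% of DMPK. The ACTG2 level in high 3, 5.92, was close to the array medians of 5.728 to 5.842, so its percentage is uncertain.

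In high 4, MCAM was at 15.5%, MYL9 at 11.7% and ACTG2 at 5.81% of the low mean. The percentages of PDLIM3 in high 2 to high 5, from 0.409% to 1.83%, and of MCAM in high 2 and high 3, at 3.15% and 5.97%, came from levels under the median of the array, and no order is read from them. The low arrays ranged from 66.2% to 127% for ACTG2 and from 53.8% to 260% for DMPK.

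**Figure D2:**
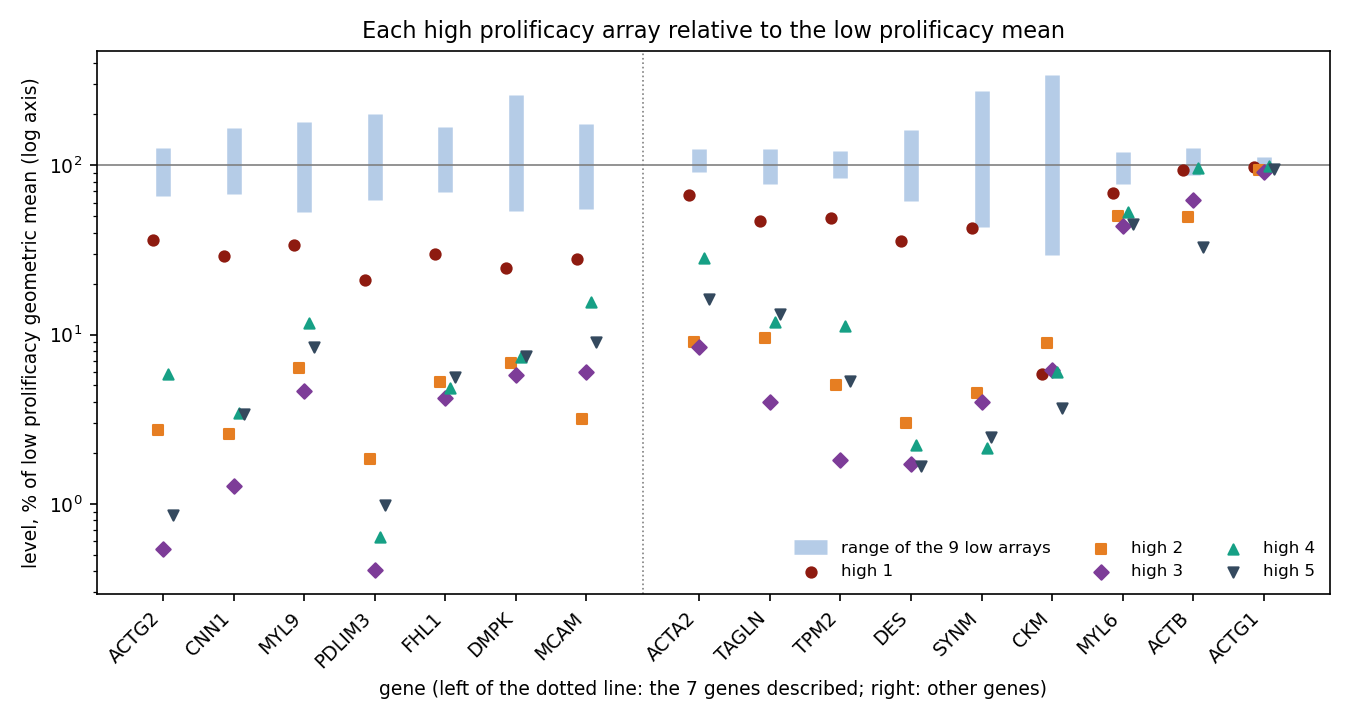
Level of each high prolificacy array as a percentage of the low prolificacy geometric mean, on a log axis, with the range of the 9 low arrays as blue bars. For the 7 genes on the left high 1 lies between 21.0% and 36.1% and the other high arrays lie between 0.409% and 15.5%, while on the right MYL6 lies between 43.6% and 68.3%. All high arrays of CKM, 4 of PDLIM3 and 2 of MCAM had levels under an array median, so their percentages are uncertain. The same holds for SYNM in high 3 to high 5, at 5.59, 4.69 and 4.91, and for ACTG2 in high 3, whose level of 5.92 was close to the array medians.

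Within low prolificacy the genes varied together. This was examined because variation inside 1 group was not used to choose them, and the family of 21 pairs was added after the data had been seen. Of these pairs, 17 passed an adjusted p of 0.05 by Pearson's r and 17 by Spearman's rho (exact two-sided permutation over all orders of the 9 arrays, Benjamini-Hochberg over 21). In the 15 pairs without ACTG2, r lay between 0.821 and 0.966 (exact permutation adjusted p between 0.00017 and 0.0082) and rho between 0.783 and 0.983 (adjusted p between 0.0010 and 0.023). The pair of CNN1 and MYL9 had the highest r (0.966, rho 0.967), with PDLIM3 and FHL1 next (0.965, rho 0.983). In the 6 pairs with ACTG2, r was between 0.495 and 0.805 and rho between 0.533 and 0.833, and 2 passed, those with DMPK and MCAM (exact permutation adjusted p of 0.017 and 0.0080). ACTG2 also had the smallest range among low arrays, 0.937, against 2.27 for DMPK. Without the 2 arrays farthest from the median of the first gene of a pair, r lay between 0.203 and 0.969. Without low 7, the highest array for all 7 genes, 13 of 21 pairs passed, 11 of them among the 15 without ACTG2, and r lay between 0.238 and 0.951. The share of pairs of other genes that would pass in these 9 arrays was not computed, so the counts have no background beside them. The mean r of 6758 other genes with the 7 had a median of -0.0676 and ran from -0.858 to 0.882. The arrays share their normalisation, and the epithelium marker level, which was lowest in low 7, is set beside these genes further on.

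The rest of the contractile apparatus was given by 7 lists of genes that hold none of the 7. They had 66 genes on the array, each counted by its brightest probe set, and 28 of the 66 fell in high prolificacy and 0 rose (limma, adjusted p under 0.05 over all probe sets; 39 lower and 1 higher at an unadjusted p under 0.05). The count that rose was 1, TPM3, without high 1. The background was 4.35% lower and 3.5% higher. With the mean of the epithelium markers as a covariate, which shared 51.7% of its variance with the group, limma called 0 of the 66 in either direction, with 24 lower and 0 higher at an unadjusted p under 0.05.

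In the thin filament list 6 of 7 genes fell, with a median difference of -2.41. ACTA2, the vascular and general smooth muscle actin, had levels of 12.82, 9.94, 9.84, 11.58 and 10.79 in the high arrays and 13.26 to 13.71 in the low arrays. The difference was -2.41 ± 0.37 (SE, limma adjusted p = 0.0021), or 5.31-fold. Its low arrays, like those of ACTG2, stood close to the highest value of any probe set, 14.07, and the folds of these probe sets are not compared. TPM2, beta-tropomyosin, fell by 3.70 ± 0.53 (SE, adjusted p = 0.0013) on the log2 scale, and its 3 other probe sets fell as well, with differences of -3.8, -2.9 and -1.86. TAGLN, or transgelin, fell 8.14-fold and SMTN, smoothelin, 6.99-fold. TMOD1, the tropomodulin that caps filament ends, differed by -0.35 and was not called.

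Of the 7 genes of myosin, its kinase and its phosphatase, 3 fell (median difference -0.83). MYLK, the kinase that phosphorylates MYL9, fell by 2.31 ± 0.39 (SE, limma adjusted p = 0.0032) on the log2 scale, from 8.46 ± 0.76 (SD, n = 9) to 6.15 ± 0.76 (SD, n = 5). PPP1R14A, an inhibitor of myosin phosphatase, fell 2.98-fold and PPP1R12A, the targeting subunit of that phosphatase, 2.16-fold. In these 3 genes the groups overlapped. RHOA differed by -0.21 and its kinases ROCK1 and ROCK2 by -0.83 and -0.78, none of which was called. The smooth muscle myosin heavy chain MYH11, with no probe set under that symbol alone, was not analysed here.

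Among 22 genes of Z-discs, dense bodies and adhesion plaques, 12 fell and the median difference was -1.42. DES, the intermediate filament protein desmin, had 10.79, 7.22, 6.42, 6.80 and 6.38 in the high arrays against 11.58 to 12.97 in the low arrays. Its difference of -4.76 ± 0.58 (SE, limma adjusted p = 0.00072) is 27.1-fold, and a much dimmer DES probe set differed by 0.018. The actin crosslinker FLNA fell 7.19-fold and VCL, vinculin of the adhesion plaque, 3.47-fold, and 1 dim VCL probe set was not called.

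Relatives of PDLIM3 and FHL1, named after their values were seen, were not alike. PDLIM7 fell by 2.78 ± 0.37 (SE) and PDLIM4 by 2.08 ± 0.34 (SE) on the log2 scale, while PDLIM5 differed by -0.37 ± 0.22 (SE) and PDLIM1 by 0.30 ± 0.23 (SE), neither of them called. FHL3 fell by 1.42 ± 0.31 (SE) and FHL2 differed by -0.63 ± 0.27 (SE, limma adjusted p = 0.19). SYNM, a partner of desmin, fell 18.9-fold. Its levels of 5.59, 4.69 and 4.91 in high 3 to high 5 lay under every array median, so this fold is uncertain. The differences between relatives were not tested.

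Of 5 relatives, partners and chromosomal neighbours of DMPK, 1 fell (median difference -0.045), the small heat shock protein HSPB2 that binds DMPK, by 0.79 ± 0.18 (SE, limma adjusted p = 0.017; 0.063 at most when 1 array was left out, lost without high 2 or high 3). The related kinase CDC42BPA differed by -0.41 and CIT by 0.22, and neither was called. In the dystrophin complex and caveolae 4 of 5 genes fell (median difference -1.84). SGCD, a sarcoglycan, fell 7.02-fold, DMD, dystrophin, 3.45-fold and CAV1, the coat protein of caveolae, 5.28-fold. In the high arrays SGCD lay between 3.09 and 4.60 and DMD between 4.21 and 5.55. These levels were under every array median, so the folds of SGCD and DMD are uncertain. All 3 CAV1 probe sets fell.

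Of 12 non-muscle actin, myosin and related isoforms, 1 fell and 0 rose in limma (5 lower and 1 higher at an unadjusted p under 0.05), with a median difference of -0.18. The gene that fell was MYL6, the essential light chain that smooth muscle and other cells use, which fell 1.95-fold, from 12.84 ± 0.20 (SD, n = 9) to 11.88 ± 0.26 (SD, n = 5; limma adjusted p = 0.0011). The cytoskeletal actins ACTB and ACTG1 differed by -0.69 ± 0.22 (SE, limma adjusted p = 0.069) and -0.071 ± 0.079 (SE, adjusted p = 0.69), and 1 of 5 other ACTG1 probe sets differed by -1.38 without a call. The other ACTB probe set, at a mean level of 9.47, differed by 0.17 ± 0.15 (SE, limma adjusted p = 0.61). By the brightest probe set, the levels of ACTB by array were as follows. ACTB was at 12.86 and 12.90 in high 1 and high 4, within the low range of 12.77 to 13.30, and at 11.34 in high 5. The tropomyosin TPM3 differed by 0.72 (limma adjusted p = 0.061) and passed without high 1 (0.80, adjusted p = 0.046) and with cyclic loess (0.72, adjusted p = 0.045). The count of 1 became 2 without high 1, high 4 or low 8.

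Of 8 transcription factors of the smooth muscle programme, 1 fell (median difference -0.27). This was PRRX1, a homeobox factor of mesenchyme, at -1.30 ± 0.33 (SE, limma adjusted p = 0.027), which lost its call without high 2, high 3, high 4 or low 6 (adjusted p up to 0.097). Without low 5 or low 8 the count was 2. MYOCD, myocardin, the coactivator of smooth muscle genes, averaged 5.92 ± 0.59 (SD, n = 9) in low prolificacy against 5.03 ± 0.26 (SD, n = 5), and was not called (limma adjusted p = 0.056). Its highest level was in low 7, at 7.03. MEF2D differed by -0.64 and was not called. SRF, the factor that myocardin acts through, had no probe set under that symbol alone and was not analysed here.

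**Figure D3:**
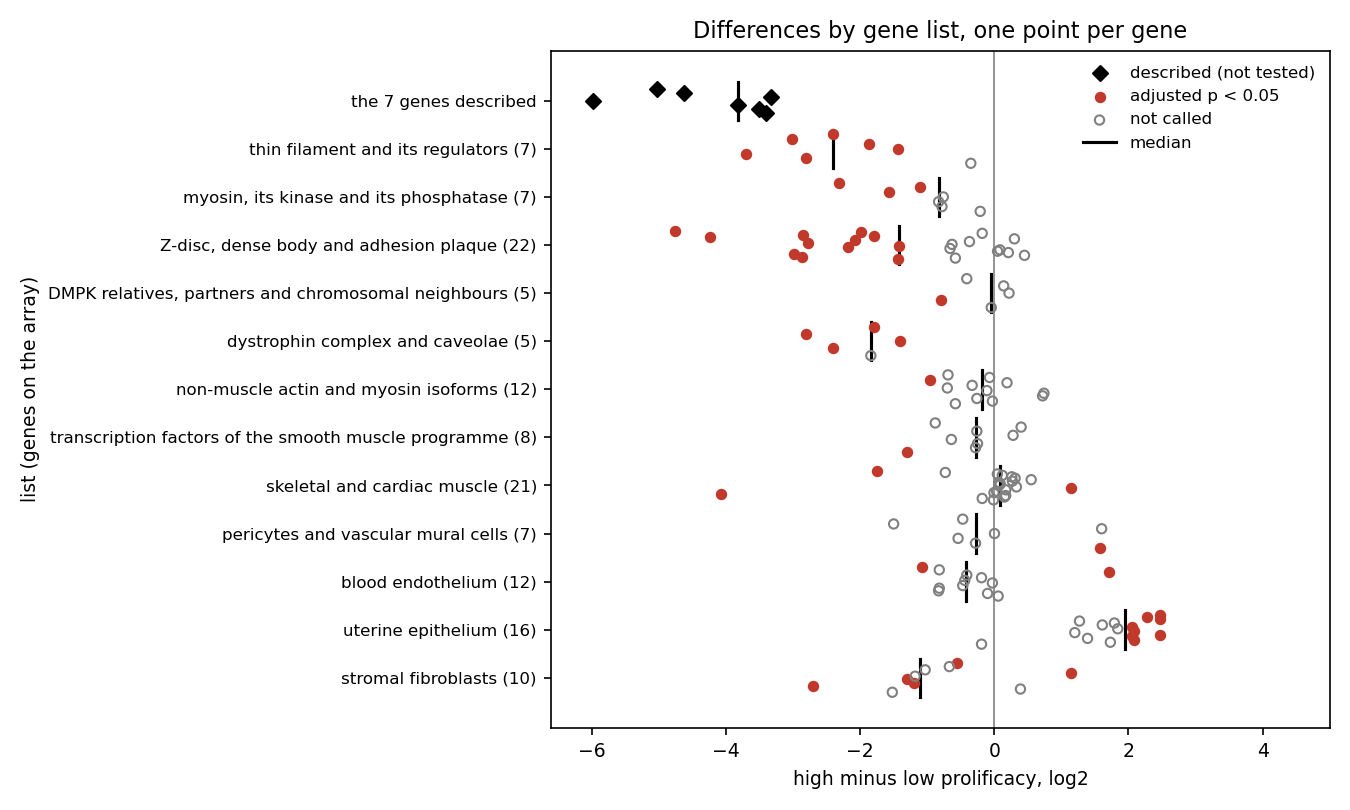
Difference of each gene (high minus low prolificacy, log2) by list, red where the adjusted p in limma was under 0.05, grey open circles where it was not, black diamonds for the 7 genes described, and a vertical bar at each median. The 7 genes lie between -5.98 and -3.33, the thin filament median is -2.41, and the non-muscle isoforms centre on -0.18.

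Since FHL1, PDLIM3 and DMPK are also genes of striated muscle, 21 skeletal and cardiac muscle genes were examined, of which 2 fell and 1 rose (median difference 0.089). In 17 of the 21 both group means lay under the lowest array median. CKM, the muscle creatine kinase, fell by 4.08 ± 0.51 (SE, limma adjusted p = 0.00072) on the log2 scale, with 4.41, 5.02, 4.49, 4.46 and 3.73 in the high arrays and 6.75 to 10.27 in the low arrays. All 5 high arrays lay under every array median for CKM, and whether its signal there exceeds background is not known, so their order for CKM is not read. The call of ACTC1, cardiac actin, which fell by 1.75, was lost when any of the high arrays or any of low 2, 6, 7 and 9 was left out. TNNI2, a fast troponin, rose by 1.14 and lost its call when any of high 2, 3 and 5 or of low 1, 2, 4, 7, 8 and 9 was left out, while 3 genes rose without high 1.

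MCAM is a marker of vessel walls too, and genes of those cells were set beside it. Of 7 pericyte and mural cell genes 0 fell and 1 rose in limma (1 lower and 2 higher at an unadjusted p under 0.05), with list means of -0.42 to 0.28 in high and -0.55 to 0.22 in low prolificacy. The gene that rose was STEAP4, at 1.58, a call lost when any of high 1, 2 and 5 or of low 1, 4, 6, 7, 8 and 9 was left out. Without high 4, 2 rose and 1 fell, and 1 fell without low 4. PDGFRB, a receptor used as a pericyte marker though not particular to pericytes, differed by -0.47 (limma adjusted p = 0.059) and ANGPT1 by 1.6 (adjusted p = 0.12). Of 12 endothelial genes 1 fell and 1 rose, with list means of -0.85 to 0.38 in high and -0.35 to 0.68 in low prolificacy. PECAM1 fell by 1.07, a call kept when high 1, high 4 or low 3 was left out and lost in the other 11 fits that left out 1 array, and 2 fell without high 1. KDR rose by 1.71, a call lost without high 2, and CLDN5, a tight junction protein, differed by -0.82 and was not called.

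Epithelium markers moved the other way. Of 16 genes 8 rose and 0 fell in limma (14 higher and 0 lower at an unadjusted p under 0.05), and 5 rose without high 2 or without high 3. KRT8 and KRT19, keratins of simple epithelium, and SPINT1, a protease inhibitor of epithelial cells, differed by 2.47, 2.47 and 2.08. The list mean was 0.63 to 1.51 in the high arrays and -2.57 to 0.33 in the low arrays, so the groups did not overlap. The lowest group mean of the list was that of MUC1 in low prolificacy, 5.68, which lay under the lowest array median. With this list mean as a covariate the differences of the 7 genes lay between -4.98 ± 0.96 (SE) for PDLIM3 and -2.38 ± 0.48 (SE) for MYL9. In that fit limma called only 2 probe sets, both of PYGM, and thus none of the 7 genes. Since the list means of the groups did not overlap, these adjusted differences compare arrays with no shared range of epithelium level. Of 10 fibroblast genes 4 fell and 1 rose, and 2 fell when any of high 2, 3 and 5 or of low 1, 2, 4, 6, 7 and 9 was left out. The fibroblast list mean was -1.15 to 0.24 in high and -0.26 to 1.02 in low prolificacy. COL6A3 and COL6A2, chains of collagen VI, fell by 2.70 and 1.19, and COL3A1 rose by 1.15, a call lost without high 2, high 3 or high 5.

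Inside the low prolificacy group, each of the 7 genes was related to the epithelium and the fibroblast list mean, 14 relations in all. Against epithelium, r was below 0 for 7 of 7 genes, between -0.801 for CNN1 and -0.363 for ACTG2, and rho lay between -0.817 and -0.533. After adjustment over the 14 relations, 2 passed by r, CNN1 (exact permutation adjusted p = 0.036) and FHL1 (-0.779, exact permutation adjusted p = 0.038), and 0 by rho (exact permutation adjusted p between 0.075 and 0.17). The epithelium mean was -2.57 in low 7 and -2.25 in low 9, and -0.75 to 0.33 in the other low arrays. Without those 2 arrays r was -0.694 for PDLIM3, where it had been -0.737, and between -0.549 and -0.450 for FHL1, CNN1, MCAM and MYL9. It was -0.211 for DMPK, where it had been -0.701, and -0.108 for ACTG2, where it had been -0.363. The relations of DMPK and ACTG2 had not passed with all 9 low arrays, and the change in r was not tested.

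Against fibroblasts, r was above 0 for 7 of 7 genes. ACTG2 had the highest value (r = 0.824, exact permutation adjusted p = 0.036; rho = 0.783, exact permutation adjusted p = 0.075) and CNN1 the lowest (0.383, rho 0.350). Without low 3 and low 8, the arrays farthest from the median, r for ACTG2 was 0.848. None of the 3 relations that passed by r, out of 14, passed when low 4, low 5, low 6, low 7 or low 8 was left out. The share of other genes that would pass against these list means was not computed.

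**Figure D4:**
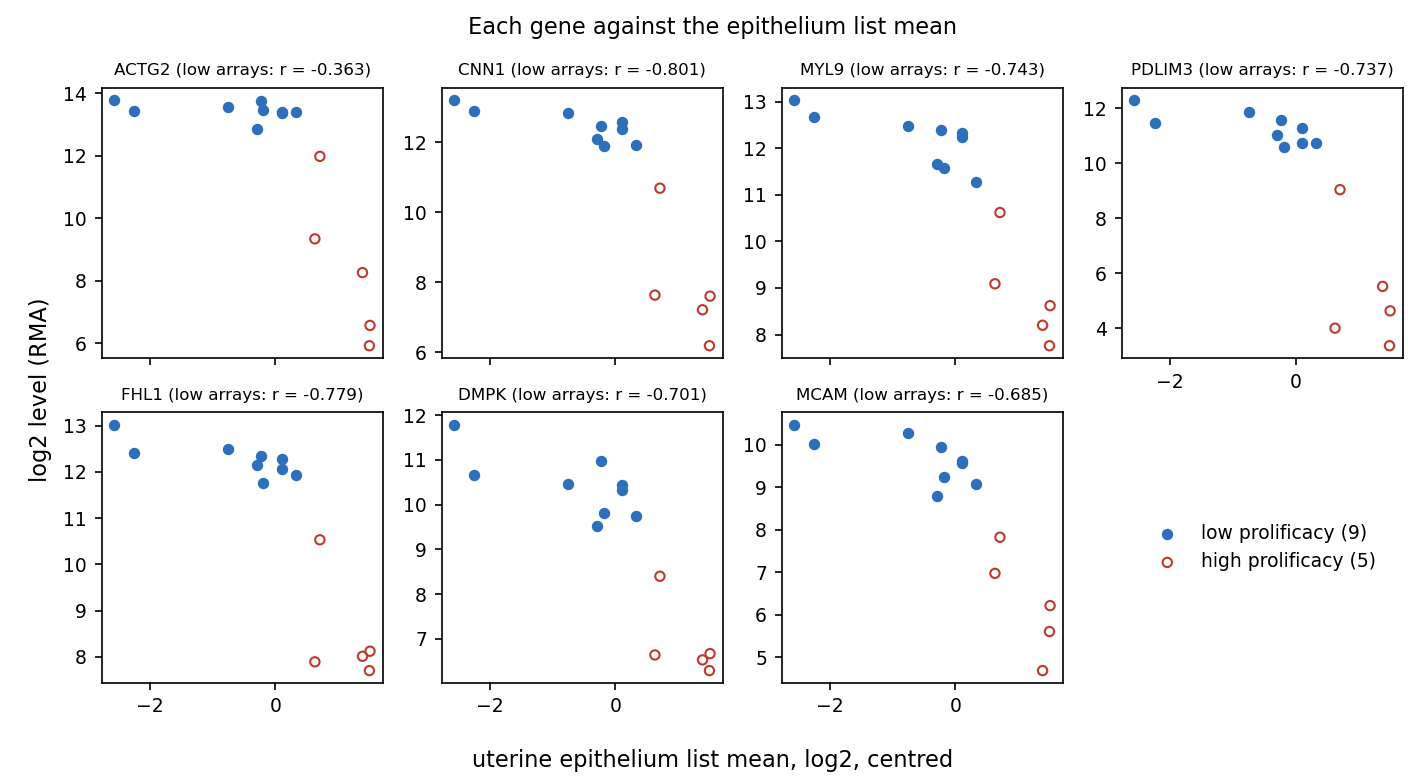
Log2 level (RMA) of each of the 7 genes against the centred mean of the uterine epithelium markers, filled blue for the 9 low and open red for the 5 high prolificacy arrays, with Pearson's r over the low arrays in each panel. Low 7 and low 9 stand apart at the left (-2.57 and -2.25). High 1 and high 4 have epithelium means of 0.71 and 0.63. Of the 7 genes, MCAM lies closest in these 2 arrays (7.82 and 6.97) and PDLIM3 farthest apart (9.04 and 4.00, the latter under the median of its array).

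The other cell type lists held few genes. In limma 0 of 3 trophoblast genes, 0 of 6 macrophage genes and 0 of 4 red blood cell genes were called (at an unadjusted p under 0.05, 0, 0 and 1). Of 5 nerve and glia genes UCHL1 fell by 1.51, a call lost when high 2, high 3, high 5 or low 6 was left out, while 2 fell without high 1, low 4 or low 7, and of 3 adipocyte genes FABP4 fell by 2.41. In the high arrays FABP4 lay between 2.71 and 5.11, under every array median, so its difference is uncertain. The trophoblast list mean was highest in high 4, at 2.61, and it was 1.74 in high 1 and -1.32 to 1.72 in the low arrays. In high 4, ACTG2, CNN1, MYL9 and MCAM were the highest after high 1, though CNN1 was at 7.63 there and 7.60 in high 5. For 2 genes, PDLIM3 (4.00) and FHL1 (7.89), high 4 was among the 2 lowest high arrays. The part of any of these cell types in the differences of the 7 genes was not tested.

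The genes whose levels followed the 7 most closely were ranked by the mean Pearson r with the 7 genes. Over all 14 arrays, between groups already known to differ, the 8 closest of 6758 genes were DES (0.977), TAGLN (0.971), COL6A3 (0.971), FLNA (0.969), VCL (0.969), TSPAN2 (0.968), TPM2 (0.967) and PYGM, the muscle glycogen phosphorylase (0.962), while the median gene had -0.148. Over the 9 low arrays alone, where the group difference has no part, they were VCL (0.882), DES (0.881), the fibronectin receptor chain ITGA5 (0.876), the tetraspanin CD151 (0.868), the protocadherin PCDH7 (0.863), the amyloid precursor APP (0.862), S100A10 (0.856) and TPM2 (0.855), with a median gene at -0.0676. VCL, DES and TPM2 stood in both rankings. PCDH7, in the low ranking, differed between groups by -0.40 ± 0.21 (SE) and was not called (limma adjusted p = 0.30). These are descriptions of arrays that share a normalisation.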

How the data were processed

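The deposited log2 values had been summarised per probe set with RMA by the authors, per the submitters' processing notes; its version is not given in the sources used here. Of 24123 probe sets 124 Affymetrix controls were left out. Probe sets were named by GEO's annotation of the platform, parts of which may be outdated, and the gene numbers of 9 of 9 member probe sets had the same symbol in the Sscrofa11.1 gene table. A gene was its brightest probe set with 1 symbol. High minus low prolificacy was fitted with limma 3.58.1 in R 4.3.3 (lmFit, eBayes, two-sided, Benjamini-Hochberg over 23999 probe sets, threshold 0.05, no covariate), and the code was tested on simulated data. For a list mean, the mean of a gene over 14 arrays was subtracted from its log2 levels before genes were averaged. Correlations used exact permutation of all orders. Members and lists were chosen with earlier results of these data known, and no set test was run. Beside the 7 genes, the 3 genes of each list with the smallest p, ACTA2, MYH11, TAGLN, DES, ACTB, ACTG1, MYL6, SRF, MYOCD and the 8 genes most alike in each ranking were named. Alternatives were a filter on dim probe sets, scalings, array weights, eBayes settings, a block, an epithelium covariate, thresholds and arrays left out.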

Additional observations from a re-analysis of the deposited data

Results flagged for a closer look

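In each group the gap between the highest or the lowest array and its nearest neighbour was divided by the range of the group and compared with Dixon's critical value (0.71 for 5 arrays, 0.493 for 9). Of 124 groups examined, for the member probe sets and the named list genes, 8 exceeded it, where chance gives about 1 in 20. High 1 stood above the other high arrays for FHL1 (10.53, others 7.70 to 8.12), DMPK (8.40, others 6.29 to 6.67) and DES (10.79, others 6.38 to 7.22). Low 8 stood below the other low arrays for ACTG2 (12.85, others 13.38 to 13.79). Low 3 stood below them for CAV1 (11.45, others 12.08 to 12.58) and HBB (5.78, others 7.25 to 8.11) and above them for CLDN5 (8.35, others 6.96 to 7.52). Low 7 stood above them for COL6A3 (12.81, others 11.96 to 12.31).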

How the results depend on the processing

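The difference of each of the 7 genes was negative in all 168 alternative values. The genes were chosen as lower in high prolificacy on these same arrays, so this sign is no support. Of these values, 164 lay within 1 pooled SD between replicates of the main value, an SD of 0.742 (FHL1) to 1.41 (ACTG2). The exceptions were ACTG2 as the mean of its probe sets (-3.21) and, with the epithelium covariate, MYL9 (-2.38), DMPK (-2.57) and MCAM (-2.50). The counts of calls moved more. Probe sets called lower, 1044, became 2 with the epithelium covariate, both of PYGM, and 676 without low 7 and low 9 together, and those called higher, 841, became 0, 389, 1529 with array weights and 1395 at an adjusted p of 0.10. With 1 array left out these counts lay between 606 and 1356 (lower) and between 338 and 1301 (higher), the low ends without high 3. Pathway genes that fell, 28, lay between 25 and 30 with 1 array left out and became 0 with the epithelium covariate. The count that rose, 0, was 0 to 1 with 1 array left out, and 1 with the filter on dim probe sets, with cyclic loess, without high 1, low 7 and low 9 together (chosen after seeing the data) and at an adjusted p of 0.10. Relations with list means that passed, 3, were 0 to 3 with 1 array left out and 0 by Spearman's rho. The relation of CNN1 with fibroblasts (r) ran from -0.0126 without low 7 to 0.551 without low 9. The causes were not tested.

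Replicate numbers 1 to 5 occur in both groups, and the labels name separate sows. The deviations of same-numbered arrays correlated between -0.247 and 0.421. Whether the numbers stand for anything shared between the groups is not known. With the replicate block, 29 probe sets were called lower and 6 higher, and 2 pathway genes fell. Low arrays whose number does not occur in high prolificacy do not bear on the difference in that fit, so it rests on fewer arrays. Of 5 high arrays 3 correlated best with the low array of their own number among low 1 to low 5.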
